A study of Mus musculus with 20 samples.

Results

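The 4 Notch receptors (Notch1, Notch2, Notch3 and Notch4) and 4 canonical ligands (Dll1, Dll4, Jag1 and Jag2) were taken by gene symbol from the count table, which made 8 of 55866 genes. All 8 passed the filter on low counts in every comparison. Notch4, Dll4, Jag2 and Dll1 were between 4.97-fold and 16.0-fold higher in the endothelial ribosome fraction of Py8119 mammary tumors than in the whole tumor. Notch1, Notch3 and Jag1 did not pass the test between the fractions, and Notch2 did not pass it unpaired but was called lower in the endothelial fraction when the fractions of each tumor were paired. Between tumors treated with the anti-Notch4 antibody 6-3-A6 and tumors treated with control IgG, edgeR with the filter on low counts called no member in any of 3 sets of libraries, whereas DESeq2 called Jag1 lower in 1 of them, and other settings called further members there.

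Notch receptors are single-pass membrane proteins that bind ligands of the Delta-like and Jagged families on neighboring cells. Binding exposes the receptor to cleavage by ADAM proteases and then by γ-secretase, which frees an intracellular domain that joins the DNA-binding protein RBPJ in the nucleus and activates genes of the Hes and Hey families. In blood vessels, Dll4 on sprouting and arterial endothelial cells activates Notch1 and limits sprouting, Jag1 acts partly against Dll4, and Notch4 is a receptor found mainly in endothelium.

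RiboTag mice of the genotype Rpl22HA/HA x Cdh5CreERT2 on a C57BL/6J background carry hemagglutinin-tagged Rpl22, a ribosomal protein, wherever Cre was active, and the endothelial Cdh5 promoter drives this Cre after tamoxifen. These alleles, 75 mg/kg of tamoxifen for 5 days at 3 weeks of age and, at 8 weeks, Py8119 mammary carcinoma cells in a fat pad were common to all groups. Females then received 25 mg/kg of 6-3-A6, a mouse antibody that blocks Notch4, or control mouse IgG for 10 days, starting at a tumor volume of 30 mm3 in the protocol and 50 mm3 in the design text. From 5 tumors per treatment, RNA bound to tagged ribosomes was recovered with anti-HA beads (IP), and part of the same homogenate was kept as input, which gave 20 libraries.

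Each library held between 11881214 and 26728205 counts on genes. The 17 endothelial markers were all higher in IP than in input (median log2 fold change 4.36, against a median of -0.06 over all 14095 genes tested), and Pecam1, an endothelial adhesion molecule, rose from 54.3 ± 11.8 CPM (counts scaled to a common library size, SD, n = 10) in input to 996 ± 483 CPM (SD, n = 10) in IP. Cdh5, the endothelial cadherin whose promoter drives the Cre, was higher in IP by 4.36 on the log2 scale (standard error, SE, 0.30; edgeR adjusted p = 2.26e-10). The labels' descriptions of 6-3-A6 libraries gave the opposite fraction from their titles, and titles were followed, with Pecam1 at 192.7 to 1403 CPM in libraries titled IP and at 30.0 to 65.9 CPM in those titled input. Control IgG IP 4, control IgG IP 5 and 6-3-A6 IP 2 had marker means of 5.77, 6.58 and 5.60 on the log2 CPM scale, below the 7.37 to 8.08 of the other IP libraries. In 6-3-A6 input 4, mitochondrially encoded genes took 38.2% of the counts, against 6.90% to 17.2% in the other input libraries. Among the IP libraries this share was 11.3% in control IgG IP 4, which the study kept (below), and 0.758% to 4.70% in the others. IP libraries still held RNA of other cells, since the summed level of 12 macrophage markers was between 3370 and 8846 CPM in IP and between 5766 and 14313 CPM in input. In such bulk samples, fewer cells of a type and less RNA per cell cannot be told apart.

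Which members belonged to the endothelial fraction was asked by comparing IP with input over all 20 libraries, with the treatment as a term in the model. Notch4, the target of the antibody, lies on chromosome 17 (34783242 to 34807477, plus strand, GRCm39, the build of the count table). In control IgG IP it reached 139, 106, 142, 30.0 and 44.7 CPM in replicates 1 to 5, and in 6-3-A6 IP 118, 28.4, 94.6, 102 and 82.3 CPM. In input it was at 5.06, 6.21, 8.33, 4.77 and 4.64 CPM under control IgG and at 7.04, 6.95, 5.47, 2.28 and 6.22 CPM under 6-3-A6. The lowest IP library thus stood above the highest input library, and the IP libraries poorest in Notch4 were the 3 with the lowest endothelial marker means. Relative to input, Notch4 was higher by a log2 fold change of 3.89 (SE 0.30, edgeR adjusted p = 1.31e-09), and it ranked Notch4 as number 150 from the top of 14095 genes. Within single tumors Notch4 was between 4.03 and 42.9 times higher in IP than in input, and it was higher in IP in 10 of 10 tumors. The greatest ratio was that of 6-3-A6 tumor 4, whose input library held 2.28 CPM, and the next was 26.9 in control IgG tumor 1. The smallest was that of 6-3-A6 tumor 2, and the next was 6.16 in control IgG tumor 4.

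Dll4 (chromosome 2, 119156265 to 119166443, plus strand) is the Delta-like ligand of endothelial cells. In IP its levels were 168, 85.5, 98.4, 22.0 and 50.0 CPM under control IgG and 63.1, 20.3, 69.5, 83.4 and 71.7 CPM under 6-3-A6. Input held 3.28 to 5.28 CPM under control IgG and 3.84 to 4.68 CPM under 6-3-A6. The fractions did not overlap, and Dll4 was higher in IP by a log2 fold change of 4.00 (SE 0.30, edgeR adjusted p = 7.99e-10). Dll4 shares 411 bases with Gm14207 on the opposite strand, which held 992 counts over all libraries against 14471 for Dll4. The strand setting of the counting was not given in the sources used here, so reads of the shared bases cannot be told apart.

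Jag2 (chromosome 12, 112871439 to 112893396, minus strand), a Jagged-type ligand, was at 32.0, 24.7, 28.1, 6.76 and 10.4 CPM in IP under control IgG and at 28.9, 6.62, 24.4, 26.0 and 22.6 CPM in IP under 6-3-A6. In input it lay between 1.18 and 2.79 CPM over the 10 libraries. Its IP libraries fell low in the same 3 tumors as those of Notch4, and its log2 fold change was 3.21 (SE 0.28, edgeR adjusted p = 8.46e-09). Dll1 (chromosome 17, 15587616 to 15597134, minus strand), a Delta-like ligand of lower abundance, was at 17.3, 8.16, 4.13, 3.41 and 4.49 CPM in IP under control IgG and at 7.17, 3.31, 8.92, 10.5 and 6.26 CPM in 6-3-A6 IP. Input held 0.833 to 1.88 CPM of Dll1, from as few as 10 counts in a library. The log2 fold change of Dll1 was 2.31 (SE 0.29, edgeR adjusted p = 1.86e-06), and control IgG IP 1 alone stood above the other libraries at 17.3 CPM.

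**Figure D1:**
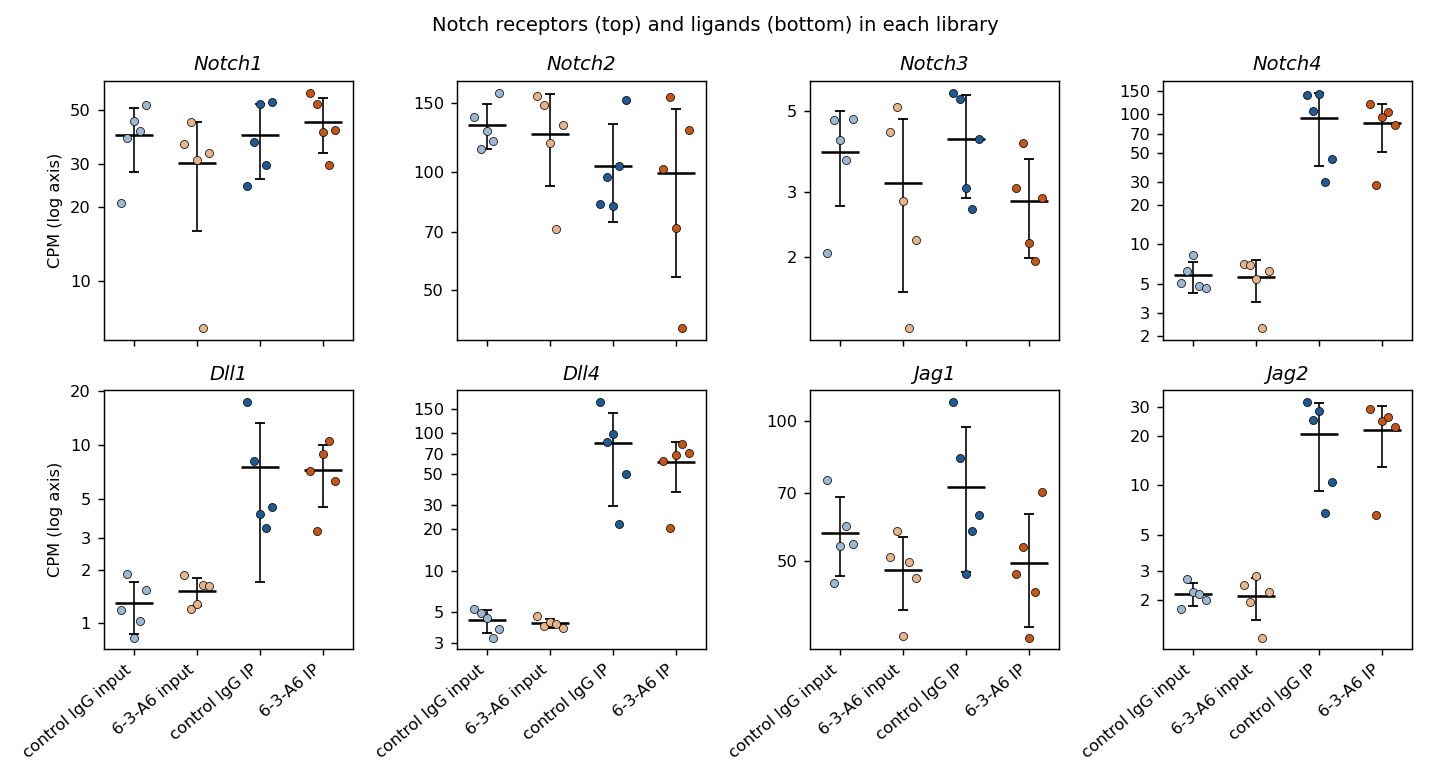
Levels of the 8 members in every library as CPM on a log axis that differs between panels, with the mean (bar) and SD (whisker) of each group of 5 libraries. The IP libraries of Notch4, Dll1, Dll4 and Jag2 lie above all input libraries, and 6-3-A6 IP 2 lies low in the panels of Notch4, Dll4 and Jag2.

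These 4 members were therefore called higher out of 8, where 19.7% of all genes tested were called higher and 21.1% lower. For the same 4 members the lowest IP library exceeded the highest input library, which held for 5.12% of the genes tested (5.34% in either direction). Their ranks among 14095 genes ran from number 129 (Dll4) to number 457 (Dll1), with Jag2 as number 268.

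The promoters of these 4 members are shown because the genes moved together between the fractions. Each window runs from 250 bases before to 50 bases after the annotated start, 5′ to 3′ on the strand of the gene, in RefSeq sequence of GRCm38.p6, a build other than that of the counts. Capitals mark the 6 letters AGGAAG (a core bound by ETS factors) or the 7 letters TGACTCA (a site bound by AP-1), on either strand.
Notch4 (chr17:34564045-34564344, plus strand): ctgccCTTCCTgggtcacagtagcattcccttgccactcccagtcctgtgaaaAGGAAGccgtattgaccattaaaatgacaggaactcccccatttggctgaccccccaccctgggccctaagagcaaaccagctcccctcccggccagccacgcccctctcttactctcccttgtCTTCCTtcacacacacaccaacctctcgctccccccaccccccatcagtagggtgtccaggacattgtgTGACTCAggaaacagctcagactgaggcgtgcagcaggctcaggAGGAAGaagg
Dll4 (chr2:119325534-119325833, plus strand): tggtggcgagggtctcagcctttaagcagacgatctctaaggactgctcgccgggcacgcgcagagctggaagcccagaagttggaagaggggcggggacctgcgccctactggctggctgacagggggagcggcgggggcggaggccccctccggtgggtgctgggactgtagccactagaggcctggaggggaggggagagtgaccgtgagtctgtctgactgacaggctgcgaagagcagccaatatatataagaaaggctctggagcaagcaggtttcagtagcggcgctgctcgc
Jag2 (chr12:112929446-112929745, minus strand): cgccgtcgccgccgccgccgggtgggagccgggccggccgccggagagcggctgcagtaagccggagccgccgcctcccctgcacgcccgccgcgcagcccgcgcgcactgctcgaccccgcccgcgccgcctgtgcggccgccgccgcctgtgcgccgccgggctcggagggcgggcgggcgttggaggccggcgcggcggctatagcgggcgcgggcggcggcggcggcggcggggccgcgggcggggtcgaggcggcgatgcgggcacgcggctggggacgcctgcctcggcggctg
Dll1 (chr17:15375774-15376073, minus strand): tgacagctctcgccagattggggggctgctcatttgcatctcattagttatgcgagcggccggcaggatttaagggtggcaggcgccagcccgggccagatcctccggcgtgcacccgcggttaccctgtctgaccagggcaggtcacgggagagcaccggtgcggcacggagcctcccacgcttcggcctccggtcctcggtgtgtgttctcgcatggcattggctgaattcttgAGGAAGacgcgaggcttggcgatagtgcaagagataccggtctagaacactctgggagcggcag

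The Notch4 window held AGGAAG at 4 places, which begin 245, 197 and 73 bases before the start and 41 bases after it, and TGACTCA 4 bases before the start. At least 1 AGGAAG occurs in 35.4% of the 32851 promoters of the same length and at least 4 occur in 0.432% of them, while TGACTCA occurs in 5.20%. The Dll1 window printed above held AGGAAG once, 14 bases before the start. The other Dll1 window, which is not printed, and the windows of Dll4 and Jag2 held neither. The letters TGGGAA (a core bound by RBPJ, found in 25.6% of promoters) and AACAAT (a core bound by SOX factors, found in 10.7%) were in none of the 9 windows of the 8 members, of which Dll1 has 2. The TGACTCA of Notch4 and its AGGAAG copies do not overlap. The Jag2 window was 86.0% G and C, that of Notch4 58.3%, against a median of 52.7% over all promoters.

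The other members differed in their pattern. Notch1 (chromosome 2, 26347915 to 26406675, minus strand), the receptor for which the vascular role of Dll4 is best known, was at 42.2 ± 12.1 CPM (SD, n = 10) in IP and 35.0 ± 13.3 CPM (SD, n = 10) in input, with a log2 fold change of 0.22 (95% interval -0.28 to 0.73, edgeR adjusted p = 0.475). It overlaps 0610009E02Rik on the opposite strand by 1494 bases, a gene with 199 counts against 13956 for Notch1. Within tumors Notch1 was higher in IP in 8 of 10, with the greatest ratio, 4.60, in 6-3-A6 tumor 4, whose input library held 6.37 CPM. Jag1 (chromosome 2, 136923376 to 136958564, minus strand), the Jagged ligand that acts partly against Dll4 in vessels, was at 60.8 ± 22.4 CPM (SD, n = 10) in IP and 52.6 ± 10.7 CPM (SD, n = 10) in input, with a log2 fold change of 0.12 (95% interval -0.22 to 0.45, edgeR adjusted p = 0.588). Jag1 thus was abundant in both fractions, higher in IP in 4 of 10 tumors.

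Notch2 (chromosome 3, 97920843 to 98057677, plus strand), a receptor used in many cell types, was at 101 ± 35.9 CPM (SD, n = 10) in IP and 128 ± 25.3 CPM (SD, n = 10) in input. Its log2 fold change was -0.40 (95% interval -0.80 to -0.01, edgeR adjusted p = 0.093). With each tumor as a block, which pairs IP and input of the same homogenate, Notch2 was called lower in IP (log2 fold change -0.46, edgeR adjusted p = 0.0051), as were 24.7% of 15601 genes. It was also called without control IgG IP 5 (-0.49, adjusted p = 0.046) and without 6-3-A6 IP 2 (-0.51, adjusted p = 0.036), and it was lower in IP in all but 1 of the 10 tumors. Notch3 (chromosome 17, 32339794 to 32385826, minus strand), a receptor known from mural cells, had 14 to 145 counts per library and the lowest mean level of the members in IP, with 3.52 ± 1.27 CPM (SD, n = 10) in IP against 3.53 ± 1.34 CPM (SD, n = 10) in input. Its log2 fold change was -0.08 (95% interval -0.56 to 0.39, edgeR adjusted p = 0.788). Mural markers were mixed, with 2 of 9 called higher in IP and 1 lower, and a summed level between 183 and 440 CPM in IP and between 131 and 246 CPM in input.

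Fitted within each treatment group, IP against input called the same 4 members higher under control IgG and under 6-3-A6. Under control IgG 11.4% of 14488 genes were called (8.28% higher and 3.1% lower) and under 6-3-A6 26.3% (12.8% higher and 13.5% lower). The log2 fold changes were 3.93 and 3.85 for Notch4, 4.21 and 3.79 for Dll4, 3.17 and 3.26 for Jag2 and 2.47 and 2.16 for Dll1, with control IgG first. The difference between the treatments (6-3-A6 minus control IgG) was -0.08 for Notch4 (95% interval -1.24 to 1.07), -0.42 for Dll4 (95% interval -1.56 to 0.72) and 0.56 for Notch1 (95% interval -0.44 to 1.56). None of the 8 members and 0% of all genes were called for this difference by edgeR, where 125 genes had an unadjusted p under 0.05, and DESeq2 also called 0. With the tumor as a block, Notch1 (log2 fold change 0.66, adjusted p = 0.028) and Notch2 (log2 fold change -0.50, adjusted p = 0.040) were called in addition under 6-3-A6, where the block called 35.9% of 15601 genes and input 4 is the library with the high mitochondrial share. The intervals are wide and reach -1.24 for Notch4 and -1.56 for Dll4. Differences of 1 or more on the log2 scale could thus be missed for the members enriched in IP.

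**Figure D2:**
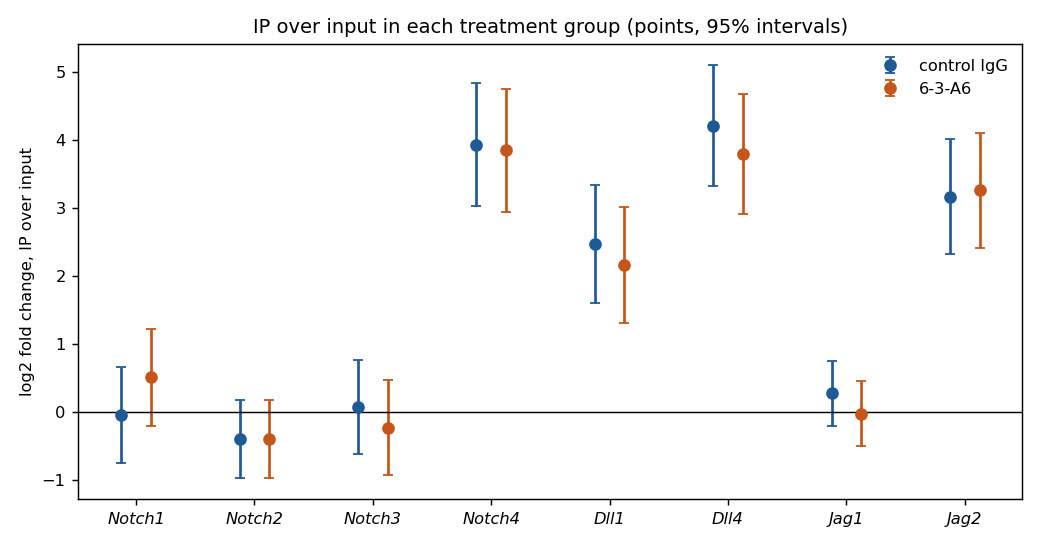
Log2 fold change of IP over input for each member, with its 95% interval, fitted in control IgG tumors and in 6-3-A6 tumors (5 each). Notch4, Dll1, Dll4 and Jag2 lie above 0 in both treatments, and the intervals of the treatments overlap for every member.

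Levels of different members were compared per length, as CPM divided by the gene length of the count table in kb, which spans introns and exons. Per kb of gene length, the order in input began with Jag1 (1.49 ± 0.30, SD, n = 10), Notch2 (0.94 ± 0.19) and Notch1 (0.595 ± 0.226), where Jag1 exceeded Notch2 and Notch2 exceeded Notch1 in 10 of 10 libraries and Notch1 exceeded Dll4 in 8. Dll4 (0.42), Notch4 (0.24), Dll1 (0.15), Jag2 (0.10) and Notch3 (0.08) followed in input, where Dll4 exceeded Notch4 in 10 of 10 libraries and Jag2 exceeded Notch3 in 8. In IP the order began with Dll4 (7.19 ± 4.13, SD, n = 10), Notch4 (3.66 ± 1.73) and Jag1 (1.73 ± 0.64), where Dll4 exceeded Notch4 in 10 of 10 libraries and Notch4 exceeded Jag1 in 8. Jag2 (0.96), Dll1 (0.77), Notch2 (0.74) and Notch1 (0.72) lay close together in IP on this scale, and Dll1 exceeded Notch2 in only 5 of 10 libraries. Notch3 was last at 0.08 per kb. Parts of this order turned with the length used. Per kb of joined exons, Notch2 (11.9) stood above Jag1 (9.03) in input in 8 of 10 libraries, and per kb of coding sequence in 7. In IP, Notch2 (9.39 per kb of joined exons) then stood well above Jag2 (3.02), Notch1 (2.96) and Dll1 (1.75), and Notch4 exceeded Jag1 in only 4 of 10 libraries. Per kb of coding sequence Jag1 exceeded Notch4 in IP in 6 of 10 libraries, and Dll4 stayed first in IP under each length.

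The make-up of both families changed between the fractions. Among the receptors, Notch4 took 12.8% ± 2.13 (SD, n = 10) of the summed CPM per kb in input and 66.6% ± 17.0 (SD, n = 10) in IP, while Notch2 went from 52.3% ± 7.97 to 16.6% ± 10.3. Among the ligands, Dll4 took 19.6% ± 3.07 (SD, n = 10) in input and 64.4% ± 9.33 (SD, n = 10) in IP, and Jag1 went from 68.7% ± 5.58 to 19.2% ± 10.1. Notch2 was the highest receptor and Jag1 the highest ligand in all 10 input libraries under each of 3 definitions of length. In IP, Notch4 and Dll4 were the highest of their families in 10 of 10 libraries per gene length. Per length of the joined exons, Notch4 was highest in 6 IP libraries and Notch2 in the other 4, and Dll4 was highest in 8 and Jag1 in 2. The share of Notch4 in IP was then 45.2% ± 18.4 and that of Dll4 52.4% ± 11.6 (SD, n = 10), so these shares depend on the length used. They also differed between IP libraries, from 15.9% to 67.9% for Notch4 per joined exons. The part of RNA of other cells in these shares was not tested. Notch4 took 66.4% ± 17.6 (SD, n = 5) of the receptors in IP under control IgG and 66.8% ± 18.5 (SD, n = 5) under 6-3-A6, a difference far smaller than the spread between libraries.

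**Figure D3:**
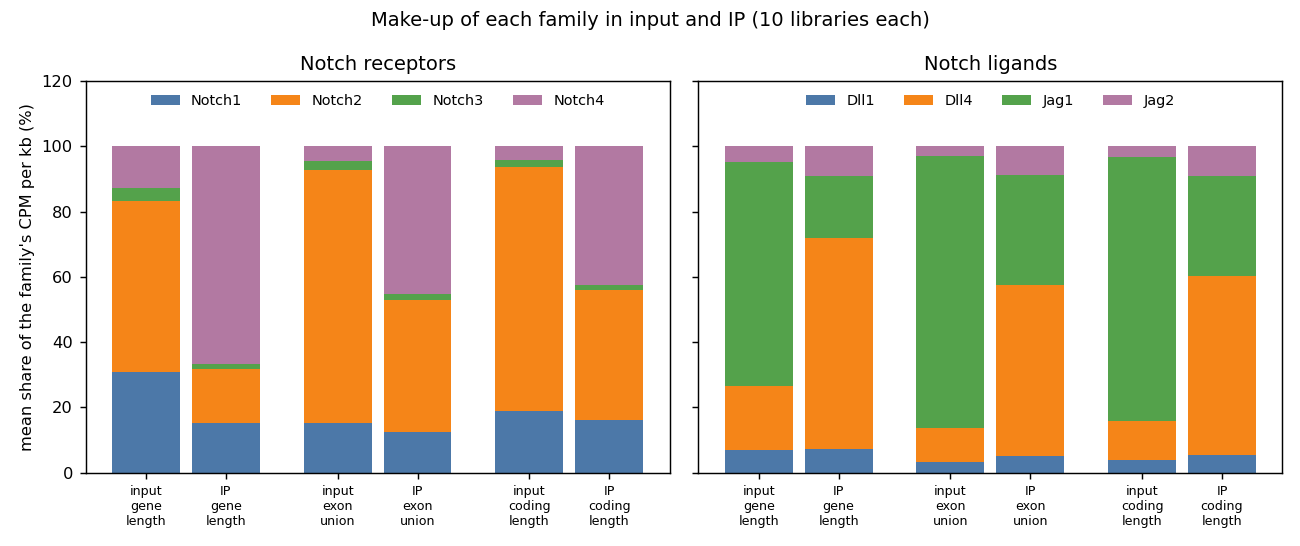
Mean share of each member in the summed CPM per kb of its family, in input and IP (10 libraries each), with 3 definitions of length on the horizontal axis (gene, joined exons, coding sequence). Notch4 and Dll4 take a greater share in IP than in input under every definition, and Notch2 and Jag1 a smaller one.

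How the members vary among the IP libraries was described against the mean log2 CPM of the 17 endothelial markers, a list that holds no member. Over the 10 IP libraries Notch4 followed this mean closely (Pearson r = 0.985, permutation p = 1e-05, the smallest that 100000 resamples can give, adjusted p over the 8 relations 8e-05; Spearman rho = 0.927, permutation p = 0.00036, adjusted p = 0.0014). Without the 2 libraries farthest from the median marker mean, control IgG IP 4 and 6-3-A6 IP 2, r was 0.956. For Jag2, r was 0.988 (permutation p = 2e-05, adjusted p = 8e-05) and rho 0.952 (permutation p = 9e-05, adjusted p = 0.00072), and r was 0.957 without those libraries. Dll4 gave r = 0.944 (permutation p = 0.0001, adjusted p = 0.00027) and rho = 0.855 (permutation p = 0.0025, adjusted p = 0.0066), and r fell to 0.753 without them. Dll1 gave r = 0.762 (permutation p = 0.0097, adjusted p = 0.019) and rho = 0.709 (permutation p = 0.027, adjusted p = 0.044), and r was 0.546 without them.

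The IP libraries were spread unevenly along the marker mean, 3 below and 7 above a value of 7. Within the 7 libraries above it, chosen after their values were seen, r was 0.831 for Notch4, 0.894 for Jag2, 0.662 for Dll4 and 0.338 for Dll1. Notch2 ran the other way over the 10 libraries (r = -0.621, permutation p = 0.057, adjusted p = 0.090; rho = -0.794, permutation p = 0.0087, adjusted p = 0.017), with r = -0.662 without the same 2 libraries and r = -0.453 within the 7 libraries. Notch1, Notch3 and Jag1 had r between -0.171 and 0.024 and rho between -0.273 and 0.055, with permutation p from 0.446 to 0.946 and adjusted p from 0.594 to 0.946. Without the same 2 libraries r was -0.444 for Notch1, -0.167 for Notch3 and -0.055 for Jag1. The same 10 libraries and the same marker mean enter each of the 8 relations.

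**Figure D4:**
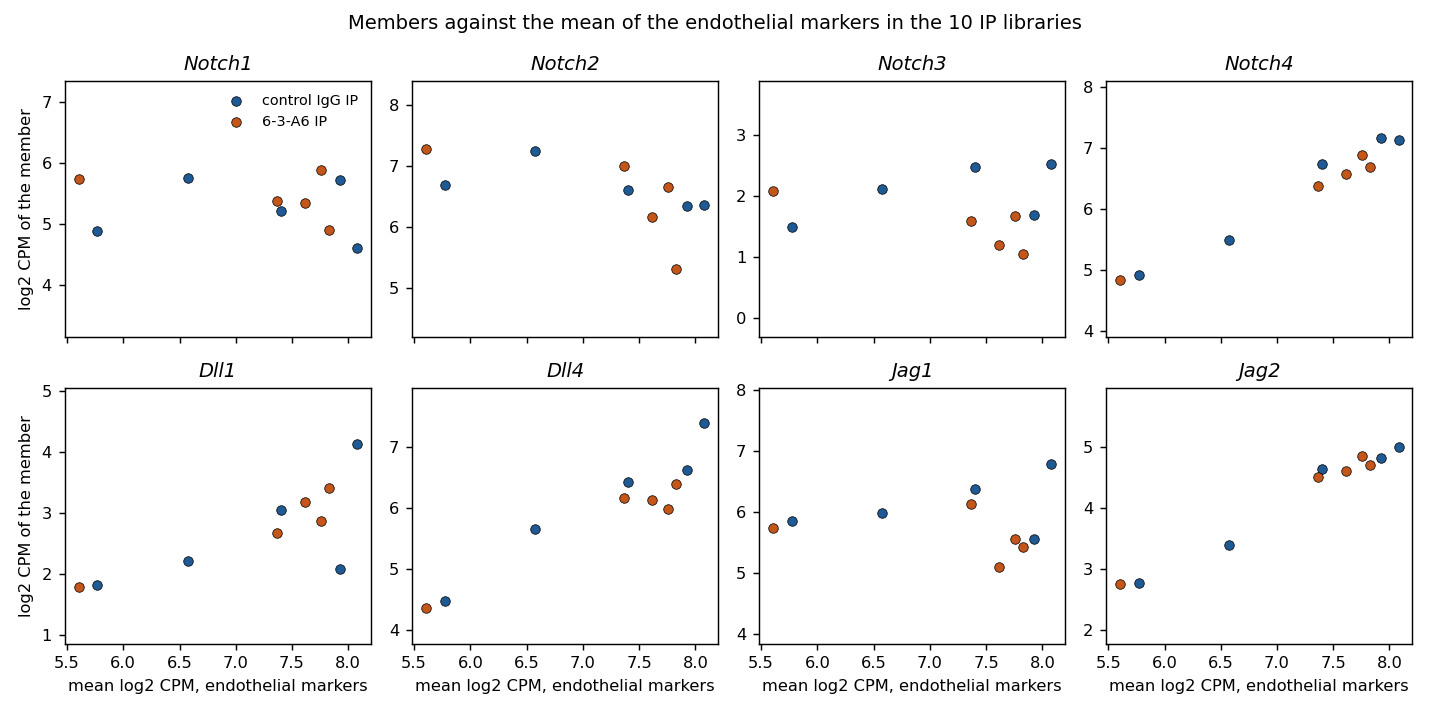
Log2 CPM of each member against the mean log2 CPM of 17 endothelial markers in the 10 IP libraries, with vertical axes that span the same log2 range in all panels. Points of Notch4 and Jag2 lie near a line (r = 0.985 and 0.988), whereas those of Notch1, Notch3 and Jag1 do not.

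Over all 20 libraries, where IP and input are pooled so that the fraction itself contributes, the genes with log2 CPM most like a member by Pearson r were as follows. For Notch4 they were Gpihbp1, a capillary lipid-transport protein (r = 0.993), Pecam1 (0.992) and Vwa1 (0.992), and for Jag2 they were Pecam1 (0.992), Notch4 (0.991) and Gpihbp1 (0.989). Dll4 was closest to Emcn, an endothelial sialomucin (0.990), Mcam (0.990) and Itgb3 (0.990), and Dll1 to Nsg1 (0.954), Bambi (0.954) and Rtl8b (0.953). Notch1 was closest to Kmt2b (0.968), Pcnx3 (0.961) and Inppl1 (0.955), and Notch2 to Fat1 (0.919), Col4a6 (0.855) and Lrp1 (0.841). Jag1 was closest to Tfrc (0.829). Among the IP libraries alone, Notch4 and Jag2 had r = 0.990 (n = 10) and Notch4 and Notch1 had r = -0.136 (n = 10).

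Whether blocking Notch4 altered the RNA of the receptors and ligands was asked in the IP libraries that the study kept, 3 per treatment, then in all 10 IP libraries and in input. The kept libraries were replicates 2, 4 and 5 of control IgG and replicates 1, 3 and 4 of 6-3-A6, and the others had been set aside as outliers in a principal component analysis. The paper states that treated and control libraries separated more clearly after this removal. The kept libraries were thus chosen on these same values. Their p-values, calls and lack of overlap, here and below, depend on that choice. Of the libraries set aside, control IgG IP 1 and 3 had endothelial marker means of 8.08 and 7.93, and 6-3-A6 IP 2 and 5 had 5.60 and 7.37. In the kept libraries edgeR called 4.61% of 13999 genes (2.57% higher and 2.04% lower) and 0 of 8 members, of which 4 had an unadjusted p under 0.05, and DESeq2 called 1 member, Jag1. Notch4 was at 106, 30.0 and 44.7 CPM under control IgG and at 118, 94.6 and 102 CPM under 6-3-A6. Control IgG IP 2 lay within the range of the treated libraries, and the other control libraries lay below it. The log2 fold change of Notch4 was 0.78 (95% interval -0.05 to 1.60, edgeR adjusted p = 0.283). Without control IgG IP 2, Notch4 (log2 fold change 1.49, adjusted p = 0.015) and Jag2 (1.61, adjusted p = 0.012) were called higher under 6-3-A6, where 4.61% of 14154 genes were called (3.38% higher).

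Jag2 in the kept libraries was at 24.7, 6.76 and 10.4 CPM under control IgG and at 28.9, 24.4 and 26.0 CPM under 6-3-A6. Its log2 fold change was 0.89 (95% interval 0.06 to 1.72, edgeR adjusted p = 0.223), while Dll1 had 0.69 (adjusted p = 0.260) and Dll4 0.42 (adjusted p = 0.594). Jag1 was the member with the smallest p. It was at 83.2, 57.8 and 62.8 CPM under control IgG and at 46.8, 34.1 and 42.7 CPM under 6-3-A6, so the kept groups did not overlap, as for 24% of all genes (13.5% higher and 10.5% lower). The log2 fold change of Jag1 was -0.76 (95% interval -1.21 to -0.30, edgeR adjusted p = 0.063), and DESeq2, which called 8.3% of 14344 genes, gave -0.73 with an adjusted p of 0.031. The libraries set aside held 110.1 and 46.8 CPM of Jag1 under control IgG and 53.4 and 70.3 CPM under 6-3-A6, with which the groups overlapped.

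Notch2 was at 97.2, 104 and 152 CPM in the kept control IgG libraries and at 102, 71.8 and 39.8 CPM in the kept 6-3-A6 libraries, with a log2 fold change of -0.76 (95% interval -1.48 to -0.04, edgeR adjusted p = 0.229). Notch3 had a log2 fold change of -0.82 (adjusted p = 0.205) from 35 to 117 counts per library, and Notch1 of 0.06 (adjusted p = 0.938). Without the filter on low counts, Notch2, Notch4, Jag1 and Jag2 were called, with adjusted p between 0.0062 and 0.032, where 5.44% of 26834 genes were called.

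Markers of cell types differed between the treatments in the kept libraries. Of 17 endothelial markers 5 were called higher under 6-3-A6 and none lower (median log2 fold change 0.86, against -0.05 over all genes tested), and their summed level was between 1583 and 5234 CPM under control IgG and between 5158 and 6395 CPM under 6-3-A6. Of 12 macrophage markers 11 were tested and 6 were called lower (median -1.0). Their summed level was between 6600 and 7739 CPM under control IgG and between 3370 and 3867 CPM under 6-3-A6, with Itgam at 0 in all libraries. Of 10 fibroblast markers 2 were called lower (median -1.0), with a summed level between 1631 and 3460 CPM under control IgG and between 753 and 1591 CPM under 6-3-A6. Of 8 epithelial markers 6 were tested and 2 were called lower (median -0.98), with a summed level between 325 and 396 CPM under control IgG and between 170.3 and 247 CPM under 6-3-A6. Of 7 red cell markers 4 were tested and 3 were called higher (median 3.21), with a summed level between 21.1 and 46.7 CPM under control IgG and between 31.4 and 562 CPM under 6-3-A6, and with Alas2 at 0. Of 9 mural markers Kcnj8 was called higher and Cspg4 lower (median -0.56), with a summed level between 207 and 349 CPM under control IgG and between 275 and 409 CPM under 6-3-A6. Of 9 lymphoid markers 6 were tested and none was called (median -0.66), with a summed level between 24.9 and 38.9 CPM under control IgG and between 20.5 and 23.2 CPM under 6-3-A6, and with Ms4a1 at 0. With the endothelial marker mean as a covariate the log2 fold change of Notch4 was -0.29, that of Jag2 -0.20 and that of Dll4 -0.73, each with an adjusted p above 0.7, where 1 gene of all was called. Over all 10 IP libraries none of these markers was called. There the median log2 fold change was -0.03 for endothelial, -0.39 for macrophage, -0.35 for fibroblast and -0.44 for epithelial markers. The median was 1.26 for red cell, -0.26 for mural and 0.75 for lymphoid markers. Whether the values of 0 for Itgam, Alas2 and Ms4a1 reflect the RNA or the counting was not tested. The part of macrophage, fibroblast, epithelial, red cell, mural and lymphoid RNA in the values of the members was not tested.

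**Figure D5:**
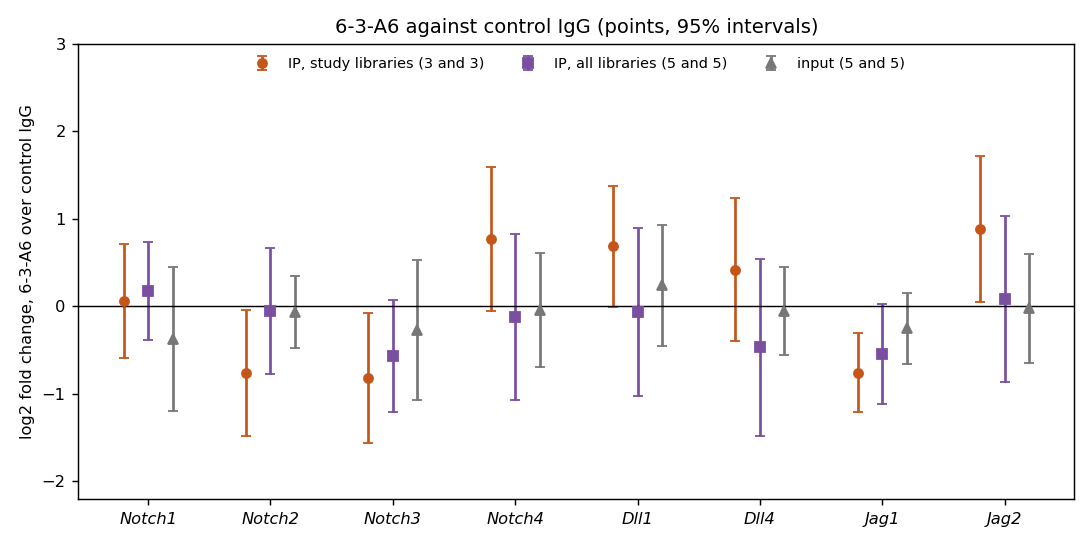
Log2 fold change of 6-3-A6 over control IgG for each member, with its 95% interval, in the kept IP libraries (3 and 3), in all IP libraries (5 and 5) and in input (5 and 5). Notch4, Dll1 and Dll4 are above 0 in the kept IP libraries and below 0 over all IP libraries, with intervals that hold 0 in both.

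Over all 10 IP libraries edgeR called 0 of 8 members and 0% of 13602 genes, while 292 genes had an unadjusted p under 0.05. The groups overlapped for all 8 members, and 0.206% of genes did not overlap (0.0662% higher and 0.14% lower). DESeq2 and voom with sample weights also called 0 genes, with 469 and 2659 genes at an unadjusted p under 0.05. Notch4 was at 92.4 ± 52.5 CPM (SD, n = 5) under control IgG and at 85.2 ± 34.3 CPM (SD, n = 5) under 6-3-A6, with a log2 fold change of -0.12 (95% interval -1.07 to 0.83). The log2 fold change was 0.18 for Notch1, -0.06 for Notch2, -0.57 for Notch3, -0.07 for Dll1, -0.47 for Dll4, -0.54 for Jag1 and 0.09 for Jag2, each with an adjusted p of 1.00. The 95% interval was -1.11 to 0.03 for Jag1 and -1.21 to 0.07 for Notch3.

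In input edgeR called 0 of 8 members and 0% of 13683 genes, while 180 genes had an unadjusted p under 0.05, and DESeq2 called 0. Notch4 was at 5.80 ± 1.54 CPM (SD, n = 5) under control IgG and at 5.59 ± 1.96 CPM (SD, n = 5) under 6-3-A6, with a log2 fold change of -0.04 (95% interval -0.69 to 0.61). The log2 fold changes of the 8 members lay between -0.37 (Notch1) and 0.24 (Dll1). Jag1 was at 57.5 ± 11.1 CPM (SD, n = 5) under control IgG and at 47.7 ± 8.62 CPM (SD, n = 5) under 6-3-A6, a log2 fold change of -0.25 (95% interval -0.65 to 0.16). The groups overlapped for all 8 members in input, where 0.168% of genes did not overlap (0.0804% higher and 0.0877% lower).

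Since the IP libraries differed in endothelial RNA, each member was also expressed as its log2 CPM minus the mean of the endothelial markers in the same library. On this scale Notch4 was at -0.87 ± 0.16 (SD, n = 5) under control IgG and at -0.97 ± 0.15 (SD, n = 5) under 6-3-A6 in the 10 IP libraries. The 10 values lay between -1.14 and -0.68, whereas the CPM of Notch4 had ranged from 28.4 to 142. The difference was -0.10 (two-sided exact permutation test, p = 0.325, adjusted over 8 tests 0.648). Jag2 was at -3.03 ± 0.16 and -2.95 ± 0.11 (SD, n = 5 each), a difference of 0.08 (exact permutation p = 0.405, adjusted p = 0.648). Dll4 was at -1.04 ± 0.26 under control IgG and at -1.43 ± 0.23 under 6-3-A6 (SD, n = 5 each), a difference of -0.39 (exact permutation p = 0.048, adjusted p = 0.381) that did not pass the correction. Jag1 differed by -0.60 (exact permutation p = 0.365, adjusted p = 0.648). The smallest p that 5 against 5 libraries can give is 0.0079, and in the kept libraries, where 3 against 3 cannot go below 0.1, Notch4 differed by -0.15 (exact permutation p = 0.4). In the kept libraries 5 members reached that smallest p of the exact permutation test (adjusted p = 0.16 each), all lower under 6-3-A6, by -1.95 for Notch2, -1.87 for Notch3, -1.86 for Jag1, -0.50 for Dll4 and -0.36 for Dll1. The marker mean that was subtracted itself differed by 1.15 between these groups (6.58 under control IgG and 7.73 under 6-3-A6), and this difference enters each of the values.

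The other genes of the pathway were taken from 6 lists of ligands, enzymes, adaptors and targets with 51 genes. Of these 44 were tested between IP and input, and 10 were called higher and 9 lower in IP, and the median was -0.03 against -0.06 over all genes tested. These counts lie near the 19.7% higher and 21.1% lower of all genes, so they set the pathway as a whole apart in neither direction. Among the Fringe enzymes, which add sugars to the EGF repeats of Notch and change its response to ligands, Mfng was higher in IP (log2 fold change 2.19, edgeR adjusted p = 3.54e-06), and Lfng (-0.56, adjusted p = 0.027) and Rfng (-0.69, adjusted p = 0.0038) were lower. Pofut1, which adds the fucose that Fringe extends, was also lower (-0.31, adjusted p = 0.046), and 4 of 5 genes of receptor glycosylation were lower in all. Among the genes of receptor cleavage, the protease gene Adam10 was higher (0.45, adjusted p = 0.044), and the γ-secretase genes Aph1b (-0.53, adjusted p = 0.011) and Aph1c (-0.79, adjusted p = 0.017) were lower.

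Among the 12 tested genes of ligand and receptor trafficking, 4 were higher and 1 lower, where 19.7% of all genes were higher and 21.1% lower. The ubiquitin ligase gene Neurl1b had a log2 fold change of 1.20 (edgeR adjusted p = 9.57e-05), Dtx1 of 3.02 (adjusted p = 2.20e-05) from a low level of 0.179 CPM in input, Numb, an inhibitor of Notch, of 0.55 (adjusted p = 0.00051) and Dtx4 of -0.57 (adjusted p = 0.019). Of 8 targets 5 were tested and 2 were higher, too few to set against the 19.7% of all genes, the repressor gene Hey1 (3.13, adjusted p = 1.02e-08) and Rnd1 (2.15, adjusted p = 0.00011), and Hes5 and Nrarp held 0 counts in all libraries. Fbxw7 and the macrophage marker Itgam were also at 0 in all libraries, although the macrophage markers summed to at least 3370 CPM. Whether a 0 reflects the RNA or the counting was not tested. Of 6 atypical ligands 3 were tested, and Egfl7, which is also on the endothelial list, was higher (4.10, adjusted p = 1.82e-07) and Dner lower (-1.35, adjusted p = 0.037).

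Between treatments, 4 of the 44 tested pathway genes were called in the kept IP libraries, all higher under 6-3-A6, where 2.57% of all genes were called higher. Hey1 was between 14.8 and 23.8 CPM under control IgG and between 49.7 and 65.4 CPM under 6-3-A6 (n = 3 each), with a log2 fold change of 1.55 (SE 0.22, edgeR adjusted p = 0.017). Egfl7 had a log2 fold change of 1.68 (adjusted p = 0.023), Mfng of 1.26 (adjusted p = 0.027) and Neurl1b of 0.88 (adjusted p = 0.035). All 4 are also among the genes higher in IP than in input, and the endothelial markers had moved in the same direction in these libraries. With the endothelial marker mean as a covariate none of the 4 was called by edgeR, and the log2 fold change was 1.17 for Hey1 (adjusted p = 0.380), 0.80 for Egfl7 (adjusted p = 0.742), 0.65 for Mfng (adjusted p = 0.799) and 0.52 for Neurl1b (adjusted p = 0.833). That fit called 1 of 14485 genes in all, and Egfl7 is itself 1 of the 17 markers in the covariate. Of the 4 genes, 0 were called without 6-3-A6 IP 3, 1 (Hey1) without 6-3-A6 IP 4, 2 (Hey1 and Egfl7) without control IgG IP 4 or IP 5, and 3 without 6-3-A6 IP 1. All 4 were called without control IgG IP 2, with DESeq2, with its size factors in edgeR and without the filter on low counts. Without 6-3-A6 IP 3, where 9 genes were called in all, the log2 fold changes were 1.62 for Hey1, 1.63 for Egfl7, 1.20 for Mfng and 0.92 for Neurl1b, close to those with all 6 libraries. Over all 10 IP libraries 0 of 43 tested pathway genes were called, and the log2 fold changes were 0.54 for Hey1, 0.48 for Egfl7, 0.26 for Mfng and 0.39 for Neurl1b. In input 0 of 41 were called.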

How the data were processed

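Per the labels and methods, the authors aligned reads with STAR 2.7.4a and counted them per gene with featureCounts (2.0.1 in the methods, with 1.5.2 also in the processing notes), and the deposited table holds raw counts of 20 libraries. Its gene lengths equal the whole gene span and its positions are those of GRCm39, whereas the methods name mm10. A second deposited table holds a signal made by the authors, counts divided by DESeq2 size factors, for 6 IP libraries. It served only to identify the libraries that the study kept, whose values were in a constant ratio to the raw counts for 100% of genes (tolerance 1e-06). Its fold changes and p-values are the study's own comparison and were not used.

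Counts were filtered with filterByExpr, normalised by TMM and tested with the quasi-likelihood F test of edgeR 4.0.16 (limma 3.58.1, R 4.3.3) over all genes, with Benjamini-Hochberg adjustment and a threshold of 0.05. CPM used TMM library sizes and log2 CPM a prior count of 2. Correlations and relative levels used permutation tests (scipy 1.17.1, pandas 2.3.3, Python 3.11.15). Alternatives were DESeq2 1.42.0, no filter, blocks, an endothelial covariate, sample weights, other lengths and leaving out each library. The kept libraries, the pooled IP libraries and input were fitted separately. IP and input of a tumor came from the same homogenate, and the correlations of their deviations from the group means lay between -0.07 and 0.71.

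Members and gene lists were chosen with earlier results of these data known. The text names all 8 members, Pecam1 and Cdh5, the 3 genes most like a member (for Jag1 only the first), and from each pathway list the called genes with the 2 largest and 2 smallest log2 fold changes between IP and input and every gene called between treatments. Some genes that this rule names are not reported here. The libraries held 11881214 to 26728205 counts, and the lowest counts of a member in a library were 10 for Dll1, 13 for Jag2, 14 for Notch3 and 25 for Notch4, where counting error is greatest. The p-values of the treatment comparisons within IP or within input measure the spread between tumors. The unpaired fits that hold both fractions took the 20 libraries as independent, although IP and input came from the same tumors. With the tumor as a block, IP against input called 7573 of 15601 genes in place of 5751 of 14095. On simulated counts with known changes, IP against input recovered 92 of 100 genes changed 4-fold and 76 of 100 changed 2-fold, with 7 false calls among 14095 genes. The comparison of kept libraries recovered 85 of 98 and 39 of 102, with 14 false calls among 13999 genes. That of all IP libraries recovered 94 of 107 and 29 of 93, with 10 false calls among 13602 genes. That of input recovered 82 of 104 and 26 of 96, with 7 false calls among 13683 genes, and the difference between treatments in IP over input recovered 60 of 91 and only 8 of 109, with 8 false calls among 14488 genes. The simulation drew each gene independently, with only the planned changes between groups. It held no difference in endothelial RNA between libraries, no pairing of IP and input and no choice of libraries. In the kept libraries the endothelial marker mean differed by 1.15 between treatments, so the simulated counts need not hold for the data.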

Additional observations from a re-analysis of the deposited data

Results flagged for a closer look

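In 32 groups of 5 libraries (8 members in 4 groups), 5 values stood far from the other 4 of their group on the log2 scale by Dixon's criterion, which chance meets in about 1 of 20 groups. In 6-3-A6 input 4, Notch1 was at 6.37 CPM against 31.2 to 44.8 CPM in the other libraries of the group, and Notch4 was at 2.28 CPM against 5.47 to 7.04 CPM. Mitochondrially encoded genes took 38.2% of the counts of that library, and the part of this in the low values was not tested.

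In 6-3-A6 IP 2, Notch4 was at 28.4 CPM against 82.3 to 118 CPM in the other 6-3-A6 IP libraries. Dll4 was at 20.3 CPM there against 63.1 to 83.4 CPM, and Jag2 at 6.62 CPM against 22.6 to 28.9 CPM. The endothelial marker mean of that library was 5.60 on the log2 CPM scale, the lowest of all IP libraries. Relative to that mean, Notch4 in the 10 IP libraries lay between -1.14 and -0.68.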

How the results depend on the processing

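The 4 members called between IP and input kept their call and direction under every alternative run, with log2 fold changes without 1 library of 3.79 to 4.03 for Notch4, 3.79 to 4.14 for Dll4, 3.11 to 3.35 for Jag2 and 2.04 to 2.43 for Dll1. With only the tumors of the kept libraries, 3381 genes were called in place of 5751. Under control IgG, 3168 genes were called with the tumor as a block in place of 1649, and 1088 to 2385 without 1 library. The difference between treatments for Notch4 was 0.032 with the tumor block and -0.30 to 0.14 without 1 library, and Notch3 between IP and input was -0.17 to 0.028. In the kept libraries 646 genes were called, against 1190 by DESeq2 (1 member), 1459 without the filter (4 members) and 1 with the endothelial covariate, under which Notch1 was -0.11, Notch4 -0.29, Dll1 -0.085, Dll4 -0.73 and Jag2 -0.20. Without 1 library there, 9 (without 6-3-A6 IP 3) to 653 genes and 0 to 2 members were called, with 161 genes without 6-3-A6 IP 4, 188 without control IgG IP 4 and 345 without 6-3-A6 IP 1, and Notch1 was -0.24 to 0.35. Over all IP libraries Dll1 was 0.13 with the replicate number as a block, and Notch4 was 0.054 and Dll1 0.20 with sample weights. Without 1 library, Notch2 was -0.28 to 0.15, Notch4 -0.34 to 0.10, Dll1 -0.22 to 0.51 and Jag2 -0.12 to 0.32 there. In input the ranges were -0.15 to 0.063 for Notch2, -0.13 to 0.14 for Notch4, -0.13 to 0.034 for Dll4 and -0.13 to 0.10 for Jag2. The share of Notch4 among receptors in control IgG and 6-3-A6 IP was 44.4% and 46.0% per joined exons and 41.9% and 43.1% per coding length, and that of Dll4 among ligands 52.5% and 52.4% per joined exons. The cause of these changes was not tested. Control IgG and 6-3-A6 tumors share only a replicate number (correlations of deviations -0.32 to 0.38), and that block called 0 genes in IP and in input. No paired analysis was possible in the kept libraries because the groups share only number 4. The coding length of the RefSeq protein was not run, and the coding length of the gene annotation, chosen after seeing the data, took its place.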
